A study of Mus musculus with 15 samples.

Results

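The 615 regions described here carried a called H3K27Me3 peak in pancreatic islets of mice on regular chow (RD) and on a high-fat diet (HFD), and had no called peak in mice whose high-fat diet contained O304 (HFD-O304). The regions were chosen by which H3K27Me3 lists held a peak, found by joining the H3K27Me3 peaks of the 3 diets wherever peaks overlapped by at least 1 bp on chromosomes 1 to 19, which gave 25197 regions, of which 2.44% met this rule. All animals were adult male CBA mice, for which the labels give no genetic modification, and O304 is a small molecule that activates AMP-activated protein kinase (AMPK). The 3 groups were RD, HFD and HFD-O304, so the last differed from HFD by the compound and from RD by fat and compound together. Chromatin immunoprecipitation sequencing (ChIP-seq) was carried out on hand-picked islets, with 2 samples for each of the marks H3K27Me3 and H3K27Ac per diet and 1 input sample per diet. The 2 samples of a group were merged before peaks were called. Each diet therefore had 1 list per mark, with no measure of the spread between samples, so diets are compared by counts and not by a test.

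H3K27Me3 is placed by Polycomb repressive complex 2 and is found over silent developmental genes, often at promoters rich in CG dinucleotides. H3K27Ac sits on the same lysine of histone H3 and marks active promoters and enhancers, so a given histone tail cannot carry both marks at that residue. In a tissue of mixed cells, both can still be found over the same stretch. In these bulk islets, fewer cells with a mark and less of the mark per cell cannot be told apart. Promoters of beta cell markers carried H3K27Ac at 5 of 8 genes in each diet, among them Ins2, Pdx1, Nkx6-1 and Mafa. No promoter of 4 alpha cell, 2 delta cell, 4 immune or 4 endothelial markers had an H3K27Ac peak in any diet. Of the acinar markers 1 of 5, Bhlha15, had a peak in each diet. The duct marker Krt19 had a peak in HFD-O304 only. The part of other cells in the results below was not tested.

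The regions were of 3 kinds. Distal sequence with at least 50% of its bases repeat-masked made up 375 regions, other distal sequence 146, and promoters, within 1000 bp of a protein-coding start site, 94. The sequences shown first are those of 3 promoter regions, taken as the 240 bases with the most CG dinucleotides outside any annotated exon. Glp1r encodes the receptor for the incretin GLP-1, Mest is an imprinted gene expressed from the paternal copy, and Gjb2 encodes a gap junction protein. All sequences are from the GRCm38 reference, which is the C57BL/6J genome, given on the plus strand. The CBA sequence was not analysed here. CG dinucleotides are in capitals, and there were 23, 14 and 33 of them.
Glp1r, chr17:30901540-30901779: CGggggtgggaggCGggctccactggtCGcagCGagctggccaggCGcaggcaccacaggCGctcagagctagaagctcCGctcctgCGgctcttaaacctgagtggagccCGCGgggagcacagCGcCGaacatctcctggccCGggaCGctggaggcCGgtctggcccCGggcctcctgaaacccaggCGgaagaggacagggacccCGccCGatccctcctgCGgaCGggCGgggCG
Mest, chr6:30737769-30738008: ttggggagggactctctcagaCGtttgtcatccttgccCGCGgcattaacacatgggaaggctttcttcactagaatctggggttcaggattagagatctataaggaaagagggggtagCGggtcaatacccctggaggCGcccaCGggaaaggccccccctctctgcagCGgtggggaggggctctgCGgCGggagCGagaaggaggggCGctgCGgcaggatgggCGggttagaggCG
Gjb2, chr14:57104083-57104322: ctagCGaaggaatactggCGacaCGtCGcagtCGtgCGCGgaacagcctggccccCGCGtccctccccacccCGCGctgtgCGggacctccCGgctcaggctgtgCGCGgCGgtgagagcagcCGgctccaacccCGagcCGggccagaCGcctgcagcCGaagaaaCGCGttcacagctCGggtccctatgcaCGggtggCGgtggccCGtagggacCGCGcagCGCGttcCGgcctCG

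The next 3 sequences come from the regions with the strongest H3K27Me3 peaks, ranked by the lower of the −log10 q of the RD and the HFD peak. They are shown because all 3 were made of short units repeated head to tail. Capitals mark 1 copy of the unit, found as the shift at which the bases shown matched themselves best over 100 bases. The units were 6, 48 and 48 bases long. Over its whole length, the region ranked 3 matched itself best at a shift of 96 bases, that is, over 2 such units. In the region ranked 2, the 240 bases shown were identical copies of its unit throughout. The reference sequence of the latter 2 was not masked as repetitive. Peaks were called without a control, and the input signal over these repeats was not examined.
Rank 1, chr1:123303699-123303938: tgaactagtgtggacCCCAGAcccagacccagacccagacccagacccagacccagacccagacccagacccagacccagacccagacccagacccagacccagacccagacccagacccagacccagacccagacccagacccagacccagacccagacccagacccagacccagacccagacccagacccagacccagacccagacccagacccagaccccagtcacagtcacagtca
Rank 2, chr2:28393736-28393975: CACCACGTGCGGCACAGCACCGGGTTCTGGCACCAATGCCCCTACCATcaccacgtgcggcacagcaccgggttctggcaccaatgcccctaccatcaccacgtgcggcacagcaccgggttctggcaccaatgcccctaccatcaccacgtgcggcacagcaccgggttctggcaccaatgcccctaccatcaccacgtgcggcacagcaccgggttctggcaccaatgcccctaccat
Rank 3, chr19:55770770-55771009: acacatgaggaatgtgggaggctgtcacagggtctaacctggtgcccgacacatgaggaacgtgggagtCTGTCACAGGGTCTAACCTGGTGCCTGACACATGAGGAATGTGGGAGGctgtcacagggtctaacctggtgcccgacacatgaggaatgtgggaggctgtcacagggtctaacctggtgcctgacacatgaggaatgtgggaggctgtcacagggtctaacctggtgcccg

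In number, 615 of the 9213 regions with peaks in RD and HFD, or 6.68%, had no HFD-O304 peak. The share without an HFD peak among regions with RD and HFD-O304 peaks was 20.9%, and the share without an RD peak among regions with HFD and HFD-O304 peaks was 20.5%. The HFD-O304 list was the longest, with 20289 peaks on these chromosomes against 14286 in RD and 14254 in HFD. When each list was cut to its 14254 peaks of highest −log10 q, the count rose to 1325. At that size, 1584 regions lacked only an HFD peak, 1456 lacked only an RD peak and 7848 had peaks in all 3 diets. With the full lists, 2265 lacked only an HFD peak and 2215 only an RD peak, so the contrast was much smaller with lists of equal size. When the RD and HFD peaks had to reach a −log10 q of 5, the count of 615 fell to 30.

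These were weak peaks. The fold enrichment of a peak is its coverage over the uniform background that the peak caller set for that list. Members had a median fold of 2.77 in RD, from 2.53 to 6.32, and of 3.03 in HFD, from 2.76 to 8.78. The 8598 regions with a peak in all 3 diets had medians of 3.08 in RD and 3.36 in HFD. Regions that lacked only an HFD or only an RD peak were as weak as the members, with median folds of 2.78 in RD and 3.02 in HFD, respectively. A −log10 q of at least 5 in RD and in HFD was reached by 30 members, 4.88%, against 33.8% of the regions shared by all diets. The lowest fold in the whole HFD-O304 list was 2.69. The RD fold lay below that value in 207 members, 33.7%. No HFD fold could, since the lowest fold in the HFD list was 2.76. Folds in RD and HFD had a Pearson r of 0.48 and a Spearman rho of 0.29 across the 615 members. All members come from the same 2 merged lists, each with a lower limit of detection.

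**Figure D1:**
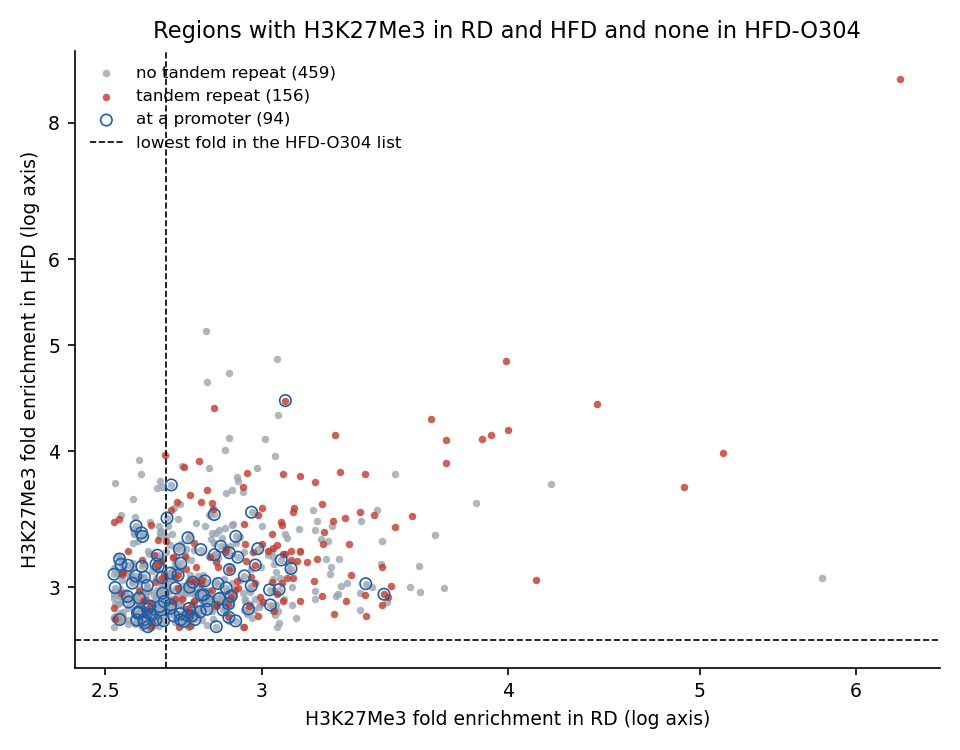
H3K27Me3 fold enrichment of the 615 regions in RD (x axis) and HFD (y axis), both on log axes, with regions that hold a tandem repeat in red and promoter regions circled in blue. Dashed lines mark 2.69, the lowest fold of any HFD-O304 peak, and the points run down to the lowest fold called in RD, 2.53, and HFD, 2.76.

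Members were also short. Their length ran from 231 to 3568 bp with a median of 554 bp, compared with 605 bp for regions that lacked only an HFD peak, 891 bp for those that lacked only an RD peak and 1119.5 bp for those joined from peaks of all diets. They covered 440 kb in all. The RD and HFD peaks of a member covered the same bases over a median of 57.8% of its length. The nearest HFD-O304 peak was a median of 25193 bp away. It lay within 1000 bp in 41 members, 6.67%, and within 100 bp in 6. Of the regions that lacked only an HFD peak, 2.91% lay within 1000 bp of an HFD peak. Of those that lacked only an RD peak, 3.43% lay that near an RD peak. The RD and HFD lists held fewer peaks than the HFD-O304 list. Next to the threshold stood the 3 members of lowest rank, which had RD peaks at the lowest −log10 q of that list, 2.19. They were at the promoter of Ngfr, the p75 neurotrophin receptor, near the olfactory receptor gene Olfr589 and in an intron of Sel1l2. Just outside the rule were 3 regions whose HFD-O304 peak was the weakest of that list, with a −log10 q of 2.19 and a fold of 2.69. These were at the promoter of Jph1, near Zscan4-ps3 and near Xpo1.

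Tandem repeats, the feature seen in the leading sequences, were then counted in every region. A region was counted when 100 consecutive bases matched the bases 1 unit further on at 90% or more, for any unit of up to 100 bases. This measure was chosen after the leading sequences had been seen. Of the 615 members, 156 held such a repeat, or 25.4% (exact 95% interval 22.0 to 29.0%). The share was 17.3% (16.5 to 18.1%) in regions shared by all diets, 16.6% (15.0 to 18.2%) in regions of RD and HFD-O304 without HFD, and 12.4% (11.0 to 13.8%) in those of HFD and HFD-O304 without RD. Regions of a single list had 19.2% (17.5 to 20.9%) for RD, 10.8% for HFD and 9.15% for HFD-O304, and all 25197 regions together 14.3%. With each list cut to 14254 peaks, the share was 17.9% (15.9 to 20.1%) in the regions that then met the rule and 17.8% (17 to 18.7%) in those shared by all diets, so that the difference was not seen, in an alternative chosen after seeing the data. The intervals treat regions as independent and cover counting error only. The median unit in these 156 members was 32 bases, and 81 of the 156 were less than 50% repeat-masked.

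Within the members, the share with a tandem repeat fell with rank. All of the 10 strongest held one, the first 3 being the sequences that prompted the measure, as did 12 of the next 20, 60%. It was 42.9% at ranks 31 to 100, 27% at ranks 101 to 300 and 15.9% (12 to 20.4%) at ranks 301 to 615. In regions shared by all diets the share was also lower among weaker peaks. There it was 24.9% of 2910 regions with a −log10 q of at least 5 in RD and HFD, and 13.5% of the other 5688. Among the 30 members with a −log10 q of at least 5 in RD and HFD, 22 held one, or 73.3% (54.1 to 87.7%). At the same limit in every diet with a peak, the share was 24.9% (23.3 to 26.6%) of 2701 regions shared by all diets. It was 40.4% (33.2 to 48.0%) of 178 regions that lacked only an HFD peak and 52.3% (41.3 to 63.2%) of 86 that lacked only an RD peak. Strong regions missing from 1 list thus held tandem repeats more often than strong regions of all 3 lists, whichever list lacked them, and the intervals of the first and last of these classes overlapped.

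**Figure D2:**
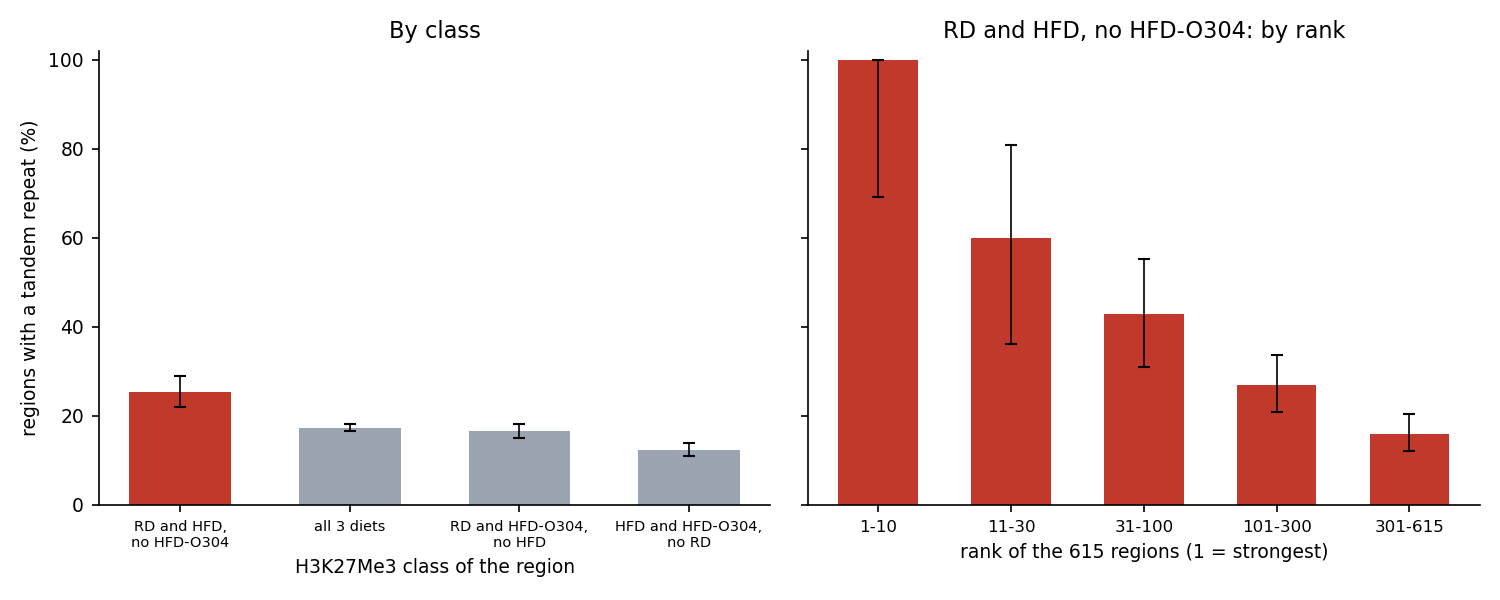
Share of regions that hold a tandem repeat, in percent, by H3K27Me3 class (left) and, for the 615 regions without an HFD-O304 peak, by rank of their RD and HFD peaks (right), with exact 95% intervals as error bars. The share was 25.4% in these regions against 12.4% to 17.3% in the other 3 classes drawn, and it went from 100% at ranks 1 to 10 to 15.9% at ranks 301 to 615.

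The 10 strongest members lay outside promoters, 6 between genes and 4 in introns. The first, chr1:123303699-123304165, had a fold of 6.32 in RD and 8.78 in HFD and stood 740998 bp from the start of Dpp10. It also carried an H3K27Ac peak in HFD alone, with a fold of 4.76. The one ranked 2, chr2:28393736-28394250, lay 53691 bp from Ppp1r26 with folds of 3.99 and 4.84, and carried H3K27Ac in HFD-O304 alone at a fold of 2.56. The H3K27Ac calls of these 2 regions thus differed in opposite ways between HFD and HFD-O304. These are calls only, and the lowest H3K27Ac fold called in HFD-O304 was 2.25. The one ranked 3, chr19:55770665-55771043, lay in an intron of Tcf7l2, a Wnt pathway transcription factor gene linked to type 2 diabetes, with folds of 4.43 and 4.42. Its H3K27Ac peaks were in HFD, at 3.42, and HFD-O304, at 2.64. The one ranked 9, in an intron of the fatty acid elongase gene Elovl5, had a fold of 5.14 in RD and 3.99 in HFD, and H3K27Ac in all 3 diets at 4.21, 3.79 and 3.75. Introns of Ptpn14 and Tbc1d5 and regions near Fam114a2, Inava, Secisbp2l and Npas3 made up the rest. Their folds lay between 3.66 and 4.28.

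Promoters made up 15.3% of members (exact 95% interval 12.5 to 18.4%), where 11.2% of all joined regions lay at one. The share was 15.6% in regions shared by all diets, 3.93% in those that lacked only HFD and 20.0% in those that lacked only RD. Promoter members were weaker than the tandem repeats. Their median fold was 2.73 in RD and 2.99 in HFD, and 0 of the 94 reached a −log10 q of 5 in RD and HFD. They had 6.38 CG dinucleotides per 100 bases, a median, against 5.16 at promoters shared by all diets, and 862 bp of length against 2044.

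Among the 10 strongest promoter members, Cartpt, the precursor of the CART neuropeptide, came first with folds of 3.08 in RD and 4.45 in HFD. That region held a tandem repeat with a unit of 26 bases and lay 884 bp from an HFD-O304 peak. It carried H3K27Ac in HFD alone, at a fold of 2.56. Asxl3, of a family of Polycomb-associated proteins, had folds of 2.97 and 3.52 and H3K27Ac in all 3 diets. Elovl4, a very long chain fatty acid elongase, had 3.10 and 3.12, also with H3K27Ac in all 3 diets. The others were Pcolce2, an enhancer of procollagen processing, 2810459M11Rik, the axoneme gene Spag16, a promoter shared by the histone genes Hist1h2ap, Hist1h2br and Hist1h4n, the interferon gene Ifna5, the translation initiation factor Eif3b and She. Of these, Spag16, the histone promoter and Eif3b also had H3K27Ac in all 3 diets. The She region lay 6 bp from an HFD-O304 peak, so its absence rests on where that peak ended. She had no H3K27Ac peak in any diet, while 9 of the 10 had one in HFD.

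Glp1r was the only promoter member among 20 genes of beta cell identity and maturity. Its region, chr17:30900748-30902782, had an H3K27Me3 fold of 3.39 in RD and 3.02 in HFD, and the next HFD-O304 peak was 3695 bp away. H3K27Ac over the same region had a fold of 2.89 in RD, and folds of 3.01 and 3.07 in the HFD and HFD-O304 lists. The active mark was thus called in all 3 diets and the repressive mark in 2 of them. Foxo1, a transcription factor of insulin signalling, held a member in an intron, with folds of 2.77 and 2.92. It too carried H3K27Ac in each diet, at 2.36, 2.38 and 2.90.

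The other gene lists met few members, in a background where 0.469% of 20698 protein-coding genes had a member at the promoter and 1.31% of 20780 at the promoter or in the body. Developmental transcription factors and signals are classical Polycomb targets. Of 57 such genes, 53 had H3K27Me3 at the promoter in some diet, 46 had a region shared by all 3 diets there, and 0 had a member. In the bodies of these 57 genes, members lay in Pax3, with folds of 2.70 and 3.28, and Tbx5, with 2.82 and 3.20, at 1054 and 1060 bp from an HFD-O304 peak. Outside the list, the developmental genes En2, Foxd1 and Lmx1b also held members. All 39 Hox genes had H3K27Me3 at the promoter, 38 of them in a region shared by all diets, and 0 had a member. Of 16 genes disallowed in beta cells, 13 had H3K27Me3 at the promoter, 8 in a shared region, and 0 had a member. There was also no member among 15 genes of beta cell stress and dedifferentiation, 9 genes of other islet cells, 11 of AMPK subunits and its upstream kinases, or 13 writers and erasers of H3K27 marks. In the same order, 4, 4, 0 and 1 of these genes had any H3K27Me3 region at the promoter. With the gene body included, 4, 4, 3 and 2 had one. Few of these genes could thus have held a member, so its absence says little about them.

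Imprinted genes gave 2 of 17, Mest and Kcnq1, a potassium channel gene whose locus holds an imprinted cluster. Mest had folds of 2.84 in RD and 3.50 in HFD, no H3K27Ac peak in any diet, and an HFD-O304 peak 909 bp away. Kcnq1 had 2.63 and 3.01, with H3K27Ac in HFD, 2.43, and HFD-O304, 2.41. Of 56 neurotransmitter receptor genes, the GABA receptor gene Gabrb1 had a promoter member with folds of 2.57 and 2.91 and a further one in its body with 3.26 and 3.41, and Gabrg3 had one in its body. Among 66 protocadherins Pcdh9 had one at the promoter. Olfactory receptors had 2 of 1127, vomeronasal receptors 0 of 328, zinc finger genes 3 of 385 and solute carriers 2 of 358 at promoters. In the same order, 21, 2, 36 and 64 of these genes had any H3K27Me3 region at the promoter. The solute carriers were Slc6a15 and Slc35f3, with further members in the bodies of Slc25a51 and Slc2a3. Potassium channels had 1 of 92, Kcnq1. Cadherins had 1 of 23 in the body, Cdh12. The list of semaphorins, ephrins and netrins, which also held the Slit gene Slit3, had 2 of 58 there, Slit3 and Ntng2. The lists were small and their counts are descriptions only.

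H3K27Ac lay over a minority of the members. A peak overlapped 19.2% (118 of 615, exact 95% interval 16.1 to 22.5%) of them in RD. In HFD it was 26.8% (165, 23.4 to 30.5%), and in HFD-O304 again 19.2% (118). Over the other 24582 joined regions, these shares were 12.3%, 18.8% and 15.2%. In regions shared by all diets they were 25.6%, 38.5% and 31.2%. The regions that lacked only an HFD peak had 7.90%, 13.8% and 9.09%, and those that lacked only an RD peak 4.06%, 8.76% and 7.04%. HFD had the highest share in each of the 4 classes, and its H3K27Ac list was also the longest, with 21021 peaks on these chromosomes against 15847 in RD and 19787 in HFD-O304. Members stood below the shared regions and above the other 2 classes in each diet, with intervals that did not overlap.

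**Figure D3:**
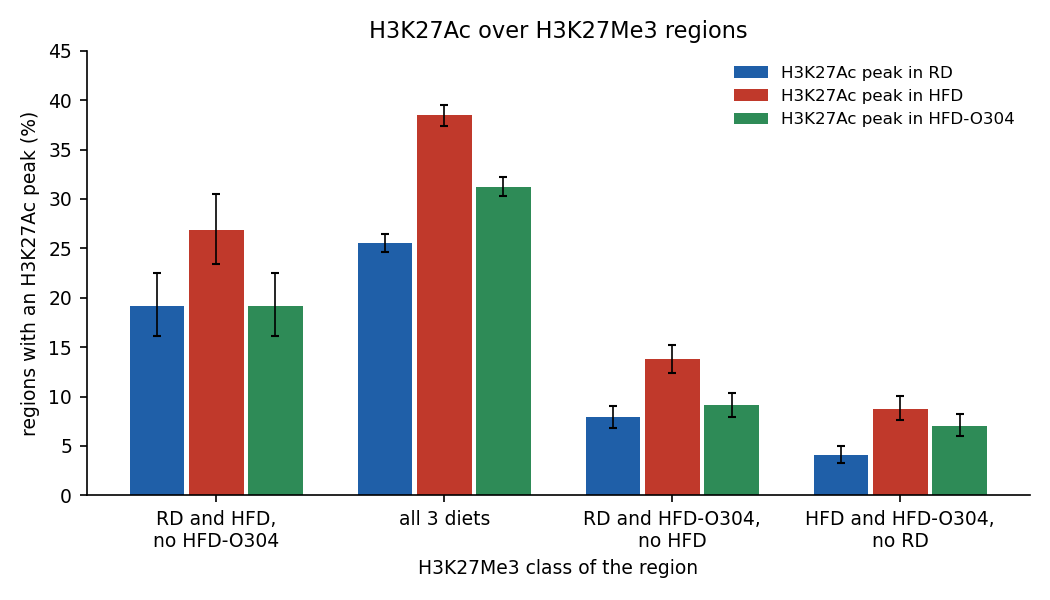
Share of regions, in percent, overlapped by an H3K27Ac peak of each diet, for 4 classes of H3K27Me3 region, with exact 95% intervals as error bars. In the regions without an HFD-O304 H3K27Me3 peak the shares were 19.2%, 26.8% and 19.2%, between those of the regions shared by all diets and those of the other 2 classes.

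By diet, 412 members had no H3K27Ac peak in any diet, 74 had one in all 3 and 46 in HFD alone. A peak in HFD-O304 alone, the diet in which H3K27Me3 was not called, was found in 18, or 2.93%, and one in RD and HFD but not HFD-O304 in 24, or 3.90%. In regions shared by all diets these shares were 4.64% and 3.33%. The absence of an H3K27Me3 call was thus seldom paired with an H3K27Ac call in HFD-O304 alone.

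At promoters H3K27Ac was more frequent. Of the 94 promoter members, 39.4% (29.4 to 50.0%) carried it in RD. In HFD 53.2% did (42.6 to 63.6%), and under O304 47.9% (37.5 to 58.4%). At the 1345 promoter regions with H3K27Me3 in all diets the shares were 19.2% (17.1 to 21.4%), 34.8% (32.2 to 37.4%) and 32.3% (29.8 to 34.8%). These intervals did not overlap those of the members in any diet, but the shared promoter regions were longer, with a median of 2044 bp against 862 bp. At the 89 promoters that lacked only an HFD peak, with a median of 837 bp, the shares were 25.8% (17.1 to 36.2%), 34.8% (25.0 to 45.7%) and 25.8% (17.1 to 36.2%). They overlapped the members' in RD and HFD and not under O304. All 3 diets had H3K27Ac at 29 promoter members and 34 had it in no diet.

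The 18 members with H3K27Ac in HFD-O304 alone included 7 promoters. Gjb2 had H3K27Me3 folds of 2.73 in RD and 3.16 in HFD and an H3K27Ac fold of 2.37. Sumo3, a ubiquitin-like modifier, had 3.46 and 2.96 with H3K27Ac at 2.46, in a stretch that held a tandem repeat with a unit of 39 bases. Evc, a gene of primary cilia, had 2.86 and 2.93 with 2.40, and the synaptic scaffold gene Lin7a had 2.70 and 2.87 with 2.41. The other 3 were the integrin gene Itga4, the collagen gene Col25a1 and the homeobox gene Lmx1b, whose H3K27Ac folds lay between 2.26 and 2.36. The lowest fold in the HFD-O304 H3K27Ac list was 2.25, and these 7 lay between 2.26 and 2.46. Outside promoters, the strongest of the 18 by rank lay near Ppp1r26, in an intron of the hepatic lipase gene Lipc and near Hgf, followed by introns of Ccdc93 and Lemd3 and regions near Pla2g4a and Ccser2.

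Of the 24 members with H3K27Ac in RD and HFD but not in HFD-O304, the 5 strongest lay near Fbxo15, Pik3c3 and Dpp10 and in introns of Itgbl1 and Stx3, and each was fully repeat-masked. The region near Dpp10 had H3K27Me3 folds of 3.06 in RD and 4.32 in HFD and H3K27Ac folds of 3.15 and 2.73. It was a different region from the leading one, 150528 bp from the same start site.

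**Figure D4:**
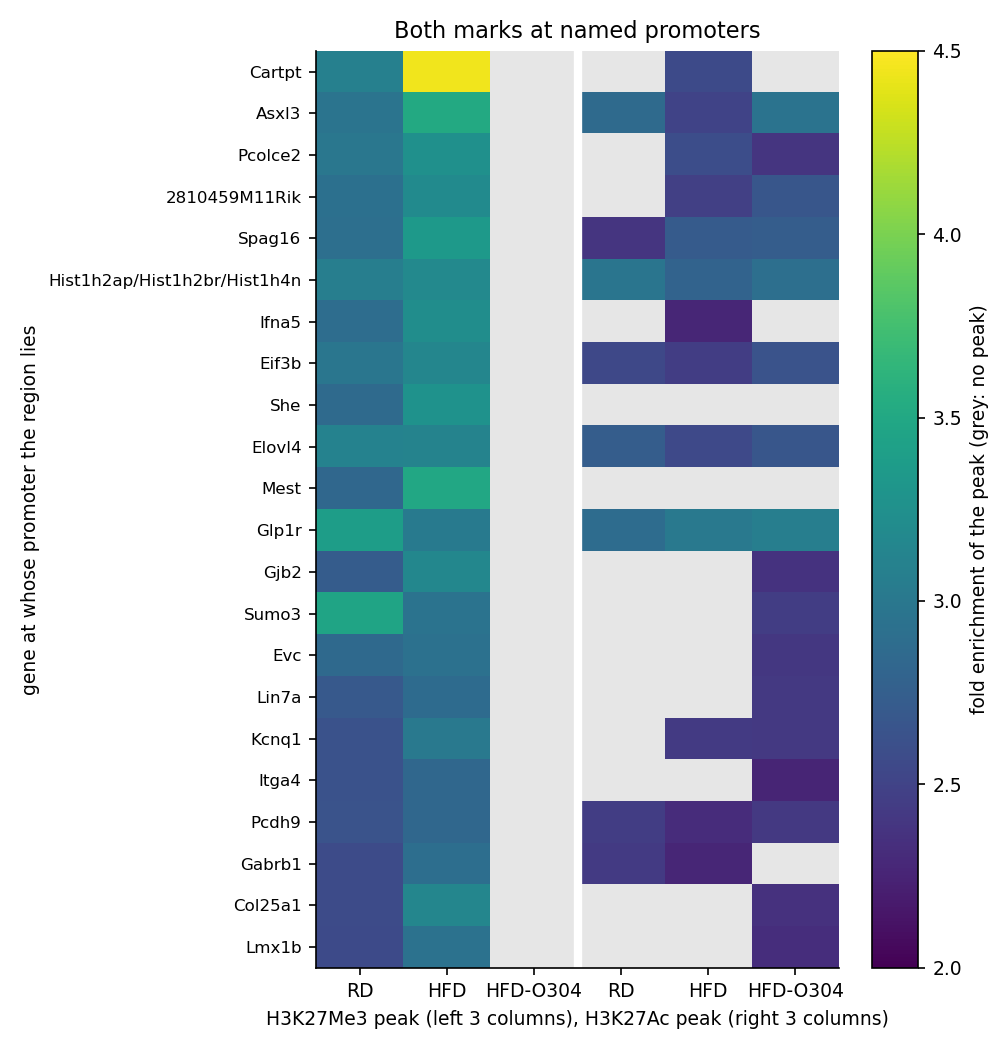
Fold enrichment of the H3K27Me3 peak (left 3 columns) and the H3K27Ac peak (right 3 columns) in each diet at 22 promoters: the 10 strongest, those of 4 gene lists and those with H3K27Ac in HFD-O304 alone. Grey marks no called peak, which holds for H3K27Me3 in HFD-O304 at all 22 by the rule. Promoters with H3K27Ac in all 3 diets include Glp1r, Asxl3, Elovl4, Eif3b, Spag16 and the shared histone promoter.

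Repeat-masked sequence made up at least 50% of 61.5% of members (57.5 to 65.3%), where 65.1% of all joined regions did so. The share was 65.8% in regions shared by all diets, 76.8% in those that lacked only HFD and 50.4% in those that lacked only RD. When the members were aligned to each other, 322, or 52.4%, matched at least 1 other over 150 bp or more at 80% identity or more, and 7 families of at least 10 members held 289 of them. The reference carries no repeat names, so the families are shown by sequence. Reads from near-identical copies cannot be placed with certainty, so the position of these peaks is less sure than that of the others. The 3 largest families had 99, 80 and 49 members, and families 4 and 7 had 23 and 11. Capitals mark CG dinucleotides in families 1 to 3 and the longest unbroken run of TG or GA in the last 2.
Family 1, 240 bases of a member in an intron of Pms1, chr1:53236863-53237102: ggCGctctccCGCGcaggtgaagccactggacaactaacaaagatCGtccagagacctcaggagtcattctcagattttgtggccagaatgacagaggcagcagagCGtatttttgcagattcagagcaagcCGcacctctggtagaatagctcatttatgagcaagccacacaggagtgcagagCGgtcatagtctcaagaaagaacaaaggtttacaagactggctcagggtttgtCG
Family 2, 240 bases of a member between genes, chr6:74369173-74369412: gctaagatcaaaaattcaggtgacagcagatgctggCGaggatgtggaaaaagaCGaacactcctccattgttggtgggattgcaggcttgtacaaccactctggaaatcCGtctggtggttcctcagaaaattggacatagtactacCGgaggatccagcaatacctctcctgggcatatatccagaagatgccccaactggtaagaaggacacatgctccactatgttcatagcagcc
Family 3, 240 bases of a member in an intron of Sgcd, chr11:47468063-47468302: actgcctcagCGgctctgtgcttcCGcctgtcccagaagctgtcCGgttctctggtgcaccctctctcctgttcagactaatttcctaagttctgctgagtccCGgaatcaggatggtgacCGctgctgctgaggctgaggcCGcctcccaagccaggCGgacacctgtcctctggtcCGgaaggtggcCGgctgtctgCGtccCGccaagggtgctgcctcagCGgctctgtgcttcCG
Family 4, 160 bases of a member between genes, chr13:99802884-99803043: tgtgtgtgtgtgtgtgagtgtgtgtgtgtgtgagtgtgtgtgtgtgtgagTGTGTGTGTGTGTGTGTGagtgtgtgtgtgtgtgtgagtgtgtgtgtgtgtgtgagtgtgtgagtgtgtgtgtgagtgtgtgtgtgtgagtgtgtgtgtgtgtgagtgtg
Family 7, 160 bases of a member between genes, chr3:130800541-130800700: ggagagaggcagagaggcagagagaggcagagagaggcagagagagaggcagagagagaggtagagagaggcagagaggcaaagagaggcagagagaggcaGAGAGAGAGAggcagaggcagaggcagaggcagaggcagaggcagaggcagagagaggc

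The largest family lay on all 19 chromosomes, with 81 of its 99 members between genes and 0 at promoters, and median folds of 2.72 in RD and 2.98 in HFD. Family 7 had the highest median folds, 3.27 and 3.50, and its strongest member, near Inava, was rank 6 of all members. When each family's representative was searched against all regions, family 1 matched 10.9% of members and 10.1% of regions shared by all diets. Family 3 matched 6.18% of members and 16.1% of shared regions. It matched 9.40% of regions that lacked only an HFD peak, 4.42% of those that lacked only an RD peak and 8.22% of all regions. In the same order, family 1 matched 17.4%, 11.7% and 9.80% of these groups. Family 2 matched 7.15% of members and 3.78% of shared regions, and 7.06%, 8.26% and 9.83% of the same groups. For family 4, rich in TG, the shares were 2.93% (1.74 to 4.59%) and 0.43% (0.30 to 0.59%). Representatives were members themselves, which raises the members' share by construction. A run of 10 TG units, counted directly, was in 5.04% (3.45 to 7.08%) of members and 7.23% (6.70 to 7.80%) of shared regions. It was in 1.90% of regions that lacked only an HFD peak and 6.91% of those that lacked only an RD peak. Among all regions it was in 4.79%, so by this count members did not exceed shared regions.

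Members lay on all 19 chromosomes, and their share of a chromosome's joined regions ran from 1.66% on chromosome 19 to 2.89% on chromosome 2. Only 15 pairs of neighbouring members were within 50000 bp of each other. The densest group was on chromosome 17, where 6 members lay around the dynein light chain genes Dynlt1b and Dynlt1c, at chr17:6400985-6460649 and chr17:6555466-6558838. They included the longest member of all, 3568 bp, with folds of 3.06 in RD and 2.78 in HFD and an HFD-O304 peak 428 bp away. Of the 6, 4 carried H3K27Ac in all 3 diets. A pair of members at histone promoters lay on chromosome 13, 22414 bp apart. The other 4 of the 5 longest members were in introns of Dnah8, 3353 bp, Faf1, 2759 bp, and Wnt9a, 2308 bp, and between genes near Pcdh7, 2820 bp.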

How the data were processed

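ChIP-seq of H3K27Me3 and H3K27Ac was carried out by the authors on islets of 3 diet groups. Reads were aligned to GRCm38 with bowtie2, the 2 replicates of each group were merged, and broad peaks were called with MACS 2.1.2. The headers of the deposited files state that fragments were paired, the q-value cutoff was 0.01, 1 fragment was kept per position and no control was given, so the inputs took no part. The deposited lists hold for each peak its length, the pileup (coverage signal), the −log10 q value and the fold enrichment, a ratio to a uniform background. For H3K27Me3, 54166902 to 74870300 fragments were kept per list, the highest number in RD, with 45.7% to 56.9% duplicates, so the lowest fold that could be called differed between lists.

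Peaks of the 3 diets were joined with Python 3.11.15 and classed by the lists they came from. Genes were taken from GENCODE mouse release 21, and masked bases from the reference sequence. Members were aligned to each other with blastn 2.17.0. Joining and classing were tested on 5000 simulated regions, where 14 of 14 counts equalled the known ones. Shares have exact Clopper-Pearson 95% intervals. Named regions were the 10 strongest members, the 10 strongest at promoters, the 5 longest, those with H3K27Ac in HFD-O304 alone or in RD and HFD only, those nearest the threshold, and those at genes of 18 lists. The members near Dynlt1b and Dynlt1c and at Lin7a, Itga4, Col25a1, Lmx1b, En2 and Foxd1 were named after their values were seen. Members, lists and measures were chosen with earlier results of these data known. X, Y and unplaced sequences were kept apart. Stricter, equal-sized and common-fold lists, other overlaps and windows, and lists without repeats were tried as alternatives. Not every cell type marker examined is reported here.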

Additional observations from a re-analysis of the deposited data

How the results depend on the processing

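Of 68 recomputed values, 39 moved by less than the interval of the reported value, or by less than 1.5 times for the count, and 29 moved further. The count of 615 became 237 when every peak had to reach a −log10 q of 5, 30 when only the RD and HFD peaks had to, 381 at a common fold of 2.76, 1325 with lists of equal size and 268 without repeat-masked peaks. It was 408 when RD and HFD folds had to reach the lowest HFD-O304 fold, a setting chosen after seeing the data. The promoter share of 15.3% became 10.1% and 0% under the 2 limits on q, 34.3% without repeat-masked peaks and 21.8% with a window of 5000 bp. The repeat share of 61.5% became 66.2% under the first limit. The H3K27Ac share in RD, HFD and HFD-O304 became 29.1%, 44.7% and 31.6% under the first limit on q, 26.7%, 46.7% and 26.7% under the second, and 31.0%, 41.4% and 34.0% without repeat-masked peaks. With lists of equal size it was 15.8% in RD and 23.2% in HFD. The tandem repeat share of 25.4%, a measure added after seeing the data, became 29.1% and 73.3% under the limits on q, 31.0% at the common fold, 17.9% with lists of equal size, 31.3% without repeat-masked peaks, 31.6% with folds of at least the lowest HFD-O304 fold and 21.8% with 95% identity between copies. The cause of these moves was not tested.

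No paired analysis was possible because each list was called on both replicates of its group together. Leaving out a replicate was not possible on such lists either. Absence of a peak is absence of a call at that list's depth, not absence of the mark.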

Other observations

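The same rule applied outside chromosomes 1 to 19 gave 34 more regions, 24 on X, 7 on Y and 3 on other sequences, for 649 of 27260 regions in all. On X and Y 0 of the 31 lay at a promoter, and 26 were at least 50% repeat-masked. The strongest lay 9283 bp from Zbtb33 on X, with H3K27Me3 folds of 3.49 in RD and 4.00 in HFD. Of the 31, 0 held a tandem repeat (exact 95% interval up to 11.2%), and 4.05% of all 1604 joined regions on X and Y did, against 14.3% of the regions on chromosomes 1 to 19. H3K27Ac overlapped 4, 6 and 7 of the 31 in RD, HFD and HFD-O304.

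Members with a tandem repeat had H3K27Ac in RD, HFD and HFD-O304 at 17.9%, 31.4% and 19.2%, and members without one at 19.6%, 25.3% and 19.2%, with overlapping intervals. Tandem repeats were most frequent in distal members outside masked sequence, 52.7% (44.3 to 61.1%) of 146, and were found in 7 of 94 promoter members.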
